A study of Mus musculus with 12 samples.

Results

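The secreted Wnt antagonists examined were 10 genes, *Sost*, *Sostdc1*, *Dkk1*, *Dkk2*, *Dkk3*, *Sfrp1*, *Sfrp2*, *Sfrp4*, *Frzb* and *Wif1*, matched by symbol among the 47069 genes of a count table from mouse tibia shaft. The question was whether the other 9 antagonists differ when *Sost* is lost. Male mice of 3 genotypes were sampled at 8 weeks of age, with n = 4 mice and 1 library per mouse in each group. Jrt;Sost-ko mice (ko) carried *Col1a1* Jrt/+, a heterozygous splice donor variant of *Col1a1* that models severe osteogenesis imperfecta, together with *Sost*-/-, a constitutive knockout. Jrt;Sost-het mice (het) carried the same *Col1a1* Jrt/+ variant, and that they were *Sost* +/- is known from the study's breeding scheme, since the labels give only *Col1a1*. WT mice were wild type at both genes. All mice were of mixed FVB/C57BL6 background, and both Jrt groups came from a colony founded by a single recombinant animal. The WT animals belonged to a parallel colony. In comparisons with WT, colony and genotype cannot be told apart. The marrow had been flushed from the bones. The numbers of the mice within a group follow the labels and link no animals between groups.

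Canonical Wnt ligands signal through a Frizzled receptor joined to the co-receptor LRP5 or LRP6, and bone-forming cells respond to this signal. Secreted antagonists act in different ways. Sclerostin, the product of *Sost* and in the adult skeleton mainly a product of osteocytes, binds LRP5 and LRP6, as do the *Sostdc1*, *Dkk1* and *Dkk2* products. The Sfrp proteins, with *Frzb* among them, and the *Wif1* product bind the Wnt ligand itself. *Dkk3* codes for a divergent Dickkopf protein whose part in Wnt signalling is less settled.

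The libraries held between 24366061 and 44418863 counts on genes. Levels are CPM values, in which each count is divided by its library's total and normalised over the 12 libraries. In bulk RNA, fewer cells of a type and less RNA per cell cannot be told apart. The 10 osteocyte genes (among them *Dmp1*, *Mepe* and *Phex*) were above 3 counts in each of the 12 mice, with a summed level of 533 to 940 CPM in het, 652 to 1110 CPM in ko and 434 to 1020 CPM in WT mice. The 11 osteoblast genes summed to 35400 to 57000, 42800 to 70600 and 23100 to 58700 CPM in these groups, so that bone cell RNA was present in every library. WT mice 3 and 4 stood apart by epidermal transcripts. All 13 epidermal genes were above 3 counts in them, with sums of 178.7 and 753.7 CPM, against 14.3 to 19.0 CPM in the other 10 mice, where *Krt77* and *Flg* were at 0. For the antagonists, values from comparisons with WT are therefore also given without these mice. For *Sost* in het against WT they enter only a range over alternatives. The lists of other pathway genes were compared with WT with all mice. Muscle genes summed to between 53.7 CPM in ko mouse 4 and 35030 CPM in WT mouse 4. Although the marrow had been flushed, neutrophil genes summed to 18400 to 24400 CPM in het, 15600 to 23000 CPM in ko and 15500 to 28900 CPM in WT mice. Erythroid genes summed to 15200 to 23100, 16300 to 25000 and 16800 to 30300 CPM, so that marrow or blood cell RNA was present in every library.

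In GRCm38, *Sost* (ENSMUSG00000001494) is a minus-strand gene on chromosome 11 (chr11:101962458-101967015), and no other of the 10 genes is on that chromosome, which also carries *Col1a1*. *Dkk1* (ENSMUSG00000024868) lies on chr19:30545863-30549665, minus strand, *Dkk2* (ENSMUSG00000028031) on chr3:132085292-132180304, plus strand, and *Sfrp2* (ENSMUSG00000027996) on chr3:83766321-83774316, plus strand. All 10 are annotated as protein coding. The exons of 9 overlap no other gene. For *Sfrp2*, 347 bp of its exons (16.1%) lie opposite the antisense gene Gm26771, and the strand setting of the counting is not given in the sources used here, so that its reads and those of Gm26771 cannot be told apart there.

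Sequence before the gene start is shown for the 4 genes whose levels separated a pair of groups. RefSeq (GRCm38.p6) gave promoters for 6 of the 10 genes, and the windows cover 250 bases before the annotated start, 5′ to 3′ on the gene's strand. Capitals mark a TATA-box match (TATAAA) or a match to the LEF/TCF core spelled CTTTGNN with A or T at both N, searched on both strands. For *Dkk1*, whose longer annotated transcript begins 169 bases upstream of the RefSeq start, only a short stretch with both of its LEF/TCF matches is given.
*Sost*, chr11:101967016-101967265, minus strand: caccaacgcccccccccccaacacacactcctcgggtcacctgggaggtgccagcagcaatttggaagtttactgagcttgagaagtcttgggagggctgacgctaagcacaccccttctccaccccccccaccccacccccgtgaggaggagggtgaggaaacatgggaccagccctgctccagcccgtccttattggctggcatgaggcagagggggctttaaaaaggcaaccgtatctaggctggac
*Dkk1*, chr19:30549588-30549613, minus strand: CTTTGAAatcccatcccggCTTTGTT
*Dkk2*, chr3:132085042-132085291, plus strand: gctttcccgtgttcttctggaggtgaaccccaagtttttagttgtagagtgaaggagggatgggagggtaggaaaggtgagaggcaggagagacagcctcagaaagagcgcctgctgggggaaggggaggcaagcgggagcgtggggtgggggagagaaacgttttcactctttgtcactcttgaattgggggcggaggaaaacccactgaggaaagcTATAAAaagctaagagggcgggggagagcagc
*Sfrp2*, chr3:83766071-83766320, plus strand: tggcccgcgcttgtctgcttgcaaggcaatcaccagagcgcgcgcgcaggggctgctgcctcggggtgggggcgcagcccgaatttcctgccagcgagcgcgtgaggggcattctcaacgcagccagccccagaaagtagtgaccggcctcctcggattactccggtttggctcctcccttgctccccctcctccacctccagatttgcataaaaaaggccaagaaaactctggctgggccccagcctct

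The *Sost* and *Sfrp2* windows held neither motif as spelled. The *Dkk1* window held CTTTGAA from 117 to 111 and CTTTGTT from 98 to 92 bases before the RefSeq start, as well as TATAAA from 54 to 49 bases before it. The *Dkk2* window held TATAAA from 32 to 27 bases before the start. Of 32851 mouse promoter windows of the same length, 12.4% held TATAAA and 14.8% held a LEF/TCF match. Such matches are letters in a window and do not show that a factor binds there.

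**Figure D1:**
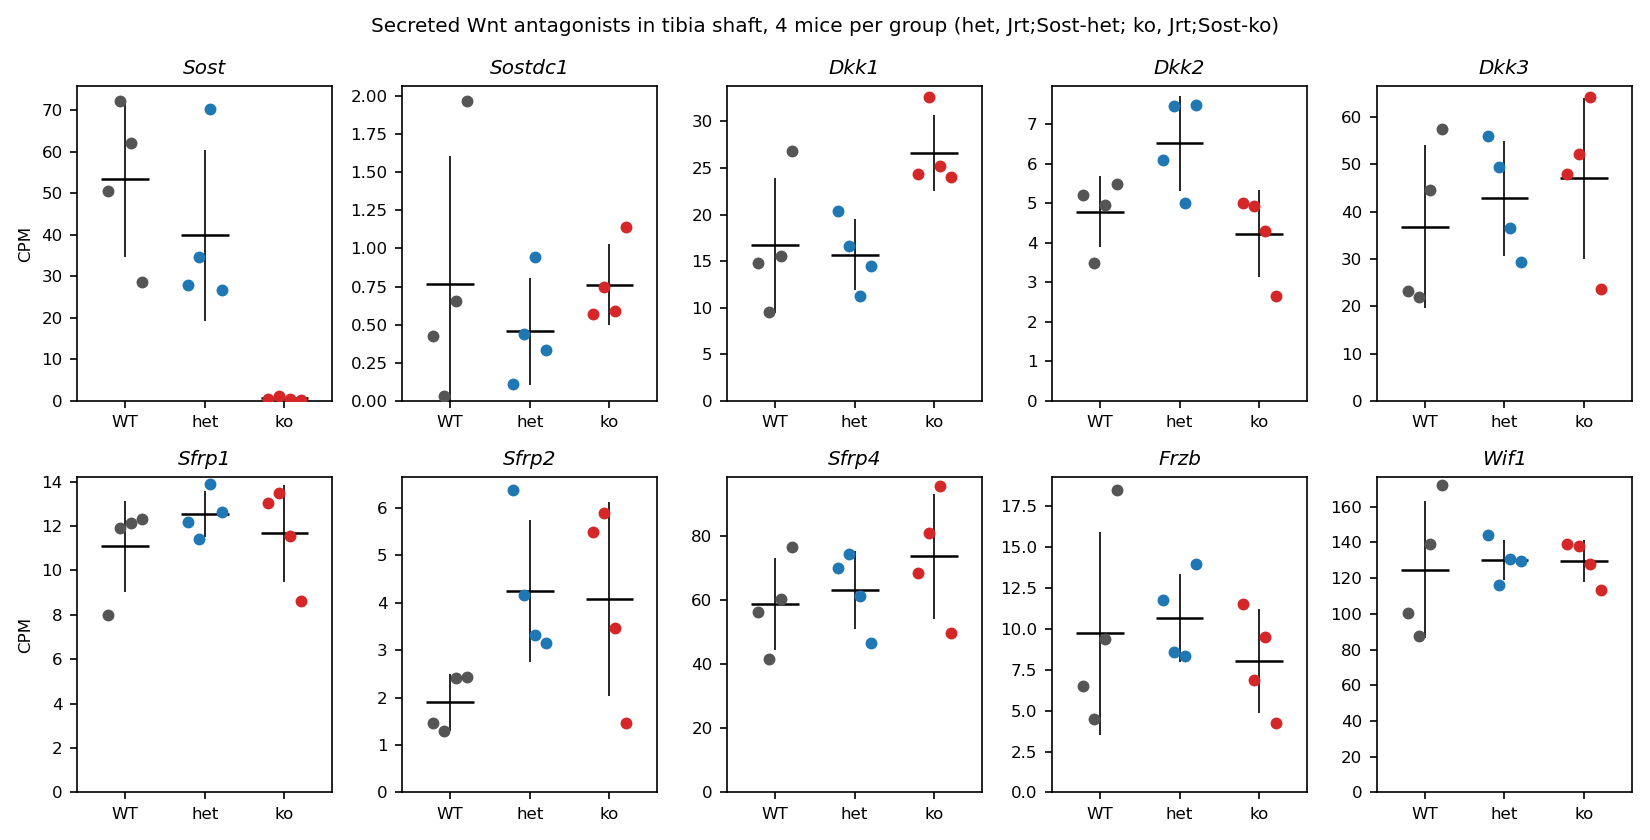
Each panel plots the level of 1 gene in CPM, with 1 point per mouse and a bar and line for the mean ± SD of 4 mice (lines are cut at 0). *Sost* was near 0 in the 4 ko mice, *Dkk1* was higher in all 4 of them than in any het mouse, and most other genes overlapped between the groups.

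*Sost* itself was examined first, since it checks the labels. It was 28.0, 34.6, 70.4 and 26.8 CPM in the het mice, 0.571, 1.28, 0.508 and 0.326 CPM in the ko mice and 50.7, 72.3, 62.2 and 28.5 CPM in the WT mice. Every ko mouse was far below every other mouse, and the het and WT mice overlapped. The ko libraries nevertheless held 16, 43, 19 and 10 counts on the gene, and the part of the gene they came from is not in the count table.

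*Sost* fell in ko mice to 0.0171-fold of the het level (95% CI 0.00796 to 0.0366, log2 fold change -5.87, standard error 0.485, adjusted p = 0.013 in edgeR's quasi-likelihood test). It also fell against WT, to 0.0128-fold (95% CI 0.00612 to 0.0267, log2 fold change -6.29, standard error 0.466, edgeR adjusted p = 0.00895). Between het and WT mice, whose means were 40.0 ± 20.6 and 53.4 ± 18.8 CPM (SD, n = 4), the log2 fold change was -0.41 (standard error 0.368, edgeR adjusted p = 1), and the interval of the fold ran from 0.419 to 1.34. It therefore held both an unaltered level and a level lowered by more than 2-fold. The edgeR call in ko against het was sensitive to the mice and to the fit, while the size of the difference was not. DESeq2 gave an adjusted p of 7.32e-25 for ko against het and 3.54e-55 for ko against WT. Without ko mouse 1, 3 or 4, or with limma-voom, the adjusted p for ko against het was 0.117, 0.138, 0.0805 and 0.479, at log2 fold changes from -5.81 to -5.66. With all 8 mice and the muscle, osteoblast or osteocyte genes as a covariate it was 0.0503, 0.287 and 0.163, at log2 fold changes of -5.74, -5.74 and -5.82. Against WT the edgeR adjusted p was 0.117, 0.104 and 0.06 without the same mice, and 0.0573 and 0.057 without WT mouse 1 or 3. Without both WT mice 3 and 4 the log2 fold change of ko against WT was -6.49 (standard error 0.417, edgeR adjusted p = 0.021). For het against WT the *Sost* log2 fold change lay between -0.83 and -0.11 over 19 alternatives.

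Across all genes, *Sost* was the single gene called at an adjusted p under 0.05 by edgeR in ko against het (0.00597% of 16739 genes tested) and in ko against WT (0.00583% of 17155). No gene was called in het against WT (0% of 16775), where 359 genes had an unadjusted p under 0.05. DESeq2 called 7 genes in ko against het, 18 in ko against WT and 4 in het against WT. All 10 antagonists passed the filter on low counts in each of the 3 comparisons. None of the other 9 was called in any comparison, by edgeR, DESeq2 or limma-voom. At an unadjusted p under 0.05 in edgeR, the genes were *Dkk1* and *Dkk2* in ko against het, *Dkk1* and *Sfrp2* in ko against WT, and *Sfrp2* and *Dkk2* in het against WT, the same pairs as with DESeq2 and limma-voom. This was 2 of 9 in each, where 5.02%, 3.89% and 2.14% of all genes tested had such a p. Over the alternatives the number ranged from 1 to 4 in ko against het, from 0 to 4 in ko against WT and from 1 to 5 in het against WT. In ko against WT it was 0 without ko mouse 1 or 2 or WT mouse 1 or 2, and without WT mice 3 and 4 it was 4 in ko and 5 in het mice against WT. Each pair of comparisons shares a group of mice, so these counts are not independent. The median log2 fold change of the 9 genes was -0.01, 0.08 and 0.14, against values between -0.003 and 0.0036 for all genes tested.

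**Figure D2:**
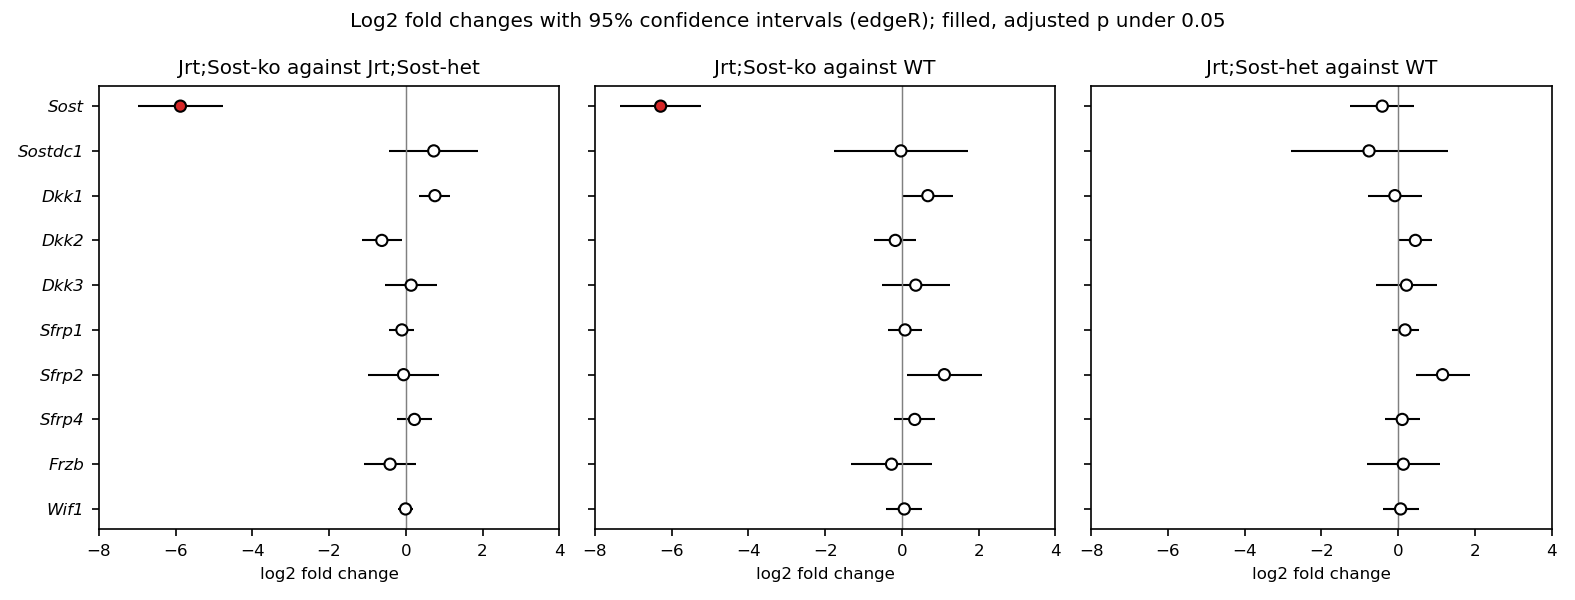
Log2 fold changes from edgeR with 95% confidence intervals, 1 row per gene and 1 panel per comparison of 4 mice with 4, with a filled point where the adjusted p was under 0.05. *Sost* is filled in both panels with ko mice, at -5.87 and -6.29, and no other gene is filled in any panel.

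Among the antagonists that bind LRP5 and LRP6, *Dkk1* was the gene with the lowest p after *Sost* in the comparison of the Jrt groups. Its level was 20.4, 16.6, 11.3 and 14.5 CPM in het mice, 24.4, 32.6, 25.2 and 24.1 CPM in ko mice and 14.8, 9.57, 15.5 and 26.8 CPM in WT mice. All 4 ko mice were above all 4 het mice, and WT mouse 4 reached into the ko range. The fold between the Jrt groups was 1.69 (95% CI 1.28 to 2.24), a log2 fold change of 0.76 (standard error 0.18) that ranked 22 among 16739 genes and did not pass correction over all genes (edgeR adjusted p = 0.901). The unadjusted p was 0.00228, and the exact two-sided permutation test gave p = 0.0286, the smallest that 4 mice against 4 allow, and 30 such tests were made, without adjustment. Groups without overlap were found for 3 of the 10 genes (*Sost*, *Dkk1* and *Dkk2*) and for 3.20% of all genes tested in this comparison. Over 18 alternatives the *Dkk1* log2 fold change stayed between 0.53 and 0.91 and the lowest adjusted p was 0.0611, with DESeq2. Against WT the fold was 1.60 (95% CI 1.02 to 2.5, edgeR p = 0.043, adjusted p = 1), and the exact permutation p was 0.114. Without WT mice 3 and 4 the log2 fold change against WT was 1.13 in place of 0.67, with an adjusted p of 0.294. Between het and WT mice it was -0.09 (standard error 0.308) with all mice and 0.38 without WT mice 3 and 4.

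*Dkk2*, a Dickkopf protein of the same receptor binding group, went the other way between the Jrt groups. Its level was 6.09, 7.46, 5.01 and 7.49 CPM in het mice, 5.00, 4.94, 4.31 and 2.64 CPM in ko mice and 5.21, 3.49, 4.95 and 5.48 CPM in WT mice. The Jrt groups did not overlap, but the highest ko mouse and the lowest het mouse were nearly equal, at 5.00 and 5.01 CPM. The fold was 0.649 (95% CI 0.454 to 0.927), with a log2 fold change of -0.62 (standard error 0.227), which did not pass correction (edgeR p = 0.0227, adjusted p = 0.901, exact permutation p = 0.0286). WT mice lay between the Jrt groups by their mean. het mice were 1.37-fold of WT (95% CI 1.01 to 1.85, edgeR p = 0.0469, adjusted p = 1, exact permutation p = 0.0857), and ko mice were 0.886-fold of WT (95% CI 0.608 to 1.29). The *Dkk2* counts behind these values were 81 to 220 per mouse.

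*Sostdc1*, the closest relative of *Sost*, was the most weakly expressed of the 10 genes in het and WT mice, and in ko mice *Sost* was lower. *Sostdc1* had between 1 and 71 counts per mouse and means of 0.457 ± 0.35 CPM in het, 0.761 ± 0.265 CPM in ko and 0.769 ± 0.838 CPM in WT mice (SD, n = 4). Only 1 ko mouse was above all het mice. The fold in ko against het was 1.66, with an interval from 0.741 to 3.70 that holds both directions (edgeR adjusted p = 0.901, exact permutation p = 0.143). The extremes were both in WT, with 0.0342 CPM in mouse 2 and 1.97 CPM in mouse 4. The direction against WT turned without WT mice 3 and 4, from a log2 fold change of -0.03 to 1.64 in ko mice and from -0.76 to 0.91 in het mice.

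*Dkk3* was 56.1, 49.4, 36.6 and 29.3 CPM in het, 48.0, 52.3, 64.4 and 23.7 CPM in ko and 23.3, 21.9, 44.5 and 57.5 CPM in WT mice. The groups overlapped, with both low and high mice in each. The fold in ko against het was 1.10 (95% CI 0.69 to 1.76, edgeR adjusted p = 0.947, exact permutation p = 0.857).

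Of the antagonists that bind Wnt ligands, *Wif1* and *Sfrp1* had narrow intervals and *Frzb* and *Sfrp2* wide ones. *Wif1*, whose product is Wnt inhibitory factor, was 144.1, 116.4, 130.8 and 129.7 CPM in het mice, 139.1, 137.9, 128.2 and 113.4 CPM in ko mice and 100.3, 87.4, 139.3 and 172.1 CPM in WT mice. The Jrt groups covered nearly the same range, and the WT mice spread on both sides of it. Between the Jrt groups the fold was 0.996, and its 95% interval of 0.868 to 1.14 was the narrowest of the 10 genes in that comparison (edgeR adjusted p = 0.991). *Sfrp1*, a secreted Frizzled-related protein, was also steady, at 12.5 ± 1.04, 11.7 ± 2.2 and 11.1 ± 2.06 CPM in het, ko and WT mice (SD, n = 4). Its fold in ko against het was 0.932 (95% CI 0.741 to 1.17, edgeR adjusted p = 0.926), and its range over all 12 mice, 1.73-fold, was the smallest of the 10 genes. *Sfrp4* was 63.2 ± 12.2 CPM in het, 73.8 ± 19.4 CPM in ko and 58.8 ± 14.4 CPM in WT mice (SD, n = 4), with a fold of 1.17 between the Jrt groups (95% CI 0.849 to 1.61, edgeR adjusted p = 0.904). *Frzb*, also called Sfrp3, was 10.7 ± 2.69, 8.04 ± 3.17 and 9.72 ± 6.18 CPM, with a fold of 0.753 between the Jrt groups (95% CI 0.468 to 1.21, edgeR adjusted p = 0.901). For these 4 genes the groups overlapped in every comparison.

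*Sfrp2* differed in both Jrt groups from WT by its mean, but did not pass correction. It was 6.39, 4.17, 3.31 and 3.14 CPM in het mice, 5.50, 5.89, 3.48 and 1.47 CPM in ko mice and 1.47, 1.30, 2.41 and 2.44 CPM in WT mice. All 4 het mice were above all WT mice, whereas ko mouse 4 lay within the WT range. het mice had 2.23-fold of the WT level (95% CI 1.37 to 3.64, log2 fold change 1.16, standard error 0.309). This ranked 11 among 16775 genes (edgeR p = 0.00505, adjusted p = 1, exact permutation p = 0.0286). *Sfrp2* was the sole antagonist of the 10 without overlap in this comparison, where 1.54% of all genes tested had none. ko mice had 2.15-fold of the WT level (95% CI 1.09 to 4.26, edgeR p = 0.0323, adjusted p = 1, exact permutation p = 0.143). In that comparison *Sost* alone among the 10 genes had no overlap, against 2.40% of all genes tested. Both comparisons use the same 4 WT mice. Between the Jrt groups the *Sfrp2* fold was 0.961, with an interval from 0.504 to 1.83. Without WT mice 3 and 4 the log2 fold change of het against WT was 1.63, with an adjusted p of 0.115, and that of ko against WT was 1.56 in place of 1.10. The tendon and periosteum list was among those that moved with *Sfrp2*. In ko against WT 8 of its 8 genes had a log2 fold change above 0 (median 0.42) and in het against WT 7 of 8 (median 0.51), none called by edgeR, DESeq2 or limma-voom. At an unadjusted p under 0.05 there was none with edgeR or DESeq2 and there were 2 in each comparison with limma-voom. Within groups *Sfrp2* followed its sum (r = 0.838, rho = 0.734, over 12 mice, and r = 0.69 without the 2 mice farthest from the median). Within groups *Sfrp2* also followed the osteocyte list (r = 0.796, rho = 0.874) and the osteoblast list (r = 0.706, rho = 0.79). In both Jrt groups against WT, 11 of 11 osteoblast, 8 of 8 adipocyte and 0 of 8 neutrophil genes were above 0. Of all genes tested, 49.1% (ko) and 51.3% (het) were above 0 against WT. With the osteocyte or osteoblast genes as a covariate, chosen after the data were seen, *Sfrp2* in ko against WT was at 0.51 or 0.48. In het against WT it stayed between 0.89 and 1.63 over 19 alternatives. The part of these tissues in the *Sfrp2* values was not tested.

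WT mice 3 and 4, which held the epidermal transcripts, also had the 2 highest WT levels of each antagonist except *Sost* and *Dkk2*. Among WT mice they also had the highest sums of muscle genes (14350 and 35030 CPM against 3055 and 273.9 CPM). The same held for the tendon and periosteum sums (881.8 and 1350 CPM against 443.8 and 381.5 CPM). It held too for the osteoblast sums (38990 and 58720 CPM against 30360 and 23130 CPM), but not for the osteocyte sums. Without WT mice 3 and 4 the log2 fold change of het against WT was 0.94 for *Dkk3*, 0.97 for *Frzb* and 0.49 for *Wif1*, in place of 0.22, 0.14 and 0.06. For ko against WT it was 1.07, 0.55 and 0.47 in place of 0.36, -0.27 and 0.06. *Sfrp4* had 0.38 (het) and 0.60 (ko) in place of 0.11 and 0.33, *Sfrp1* 0.35 and 0.24 in place of 0.18 and 0.08, and *Dkk2* 0.60 and -0.04 in place of 0.45 and -0.17. With 2 WT mice left, none of the 9 genes passed correction in edgeR (lowest adjusted p = 0.114, for *Wif1* in het against WT). The part of the epidermal, muscle, tendon or bone cell transcripts in these results was not tested.

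Per length of exon, the 10 genes were ordered in much the same way in all groups, apart from *Sost*. *Wif1* was first, at 53.7, 53.4 and 51.4 CPM per kb in het, ko and WT mice, with no overlap with the next gene in any group. *Sost* was second in het (19.3 CPM per kb) and WT mice (25.9 CPM per kb), overlapping *Sfrp4* (15.1 and 14.1 CPM per kb). In ko mice *Sost* was last, at 0.325 CPM per kb, and overlapped *Sostdc1* at 0.427 CPM per kb. *Sfrp4* and *Dkk3* overlapped in all 3 groups, and *Dkk3* and *Dkk1* overlapped in ko and WT mice but not in het mice, where *Dkk3* was 12.8 and *Dkk1* 6.47 CPM per kb. *Frzb*, *Sfrp1*, *Sfrp2* and *Dkk2* followed at means of 0.884 to 3.30 CPM per kb, with most neighbours overlapping.

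**Figure D3:**
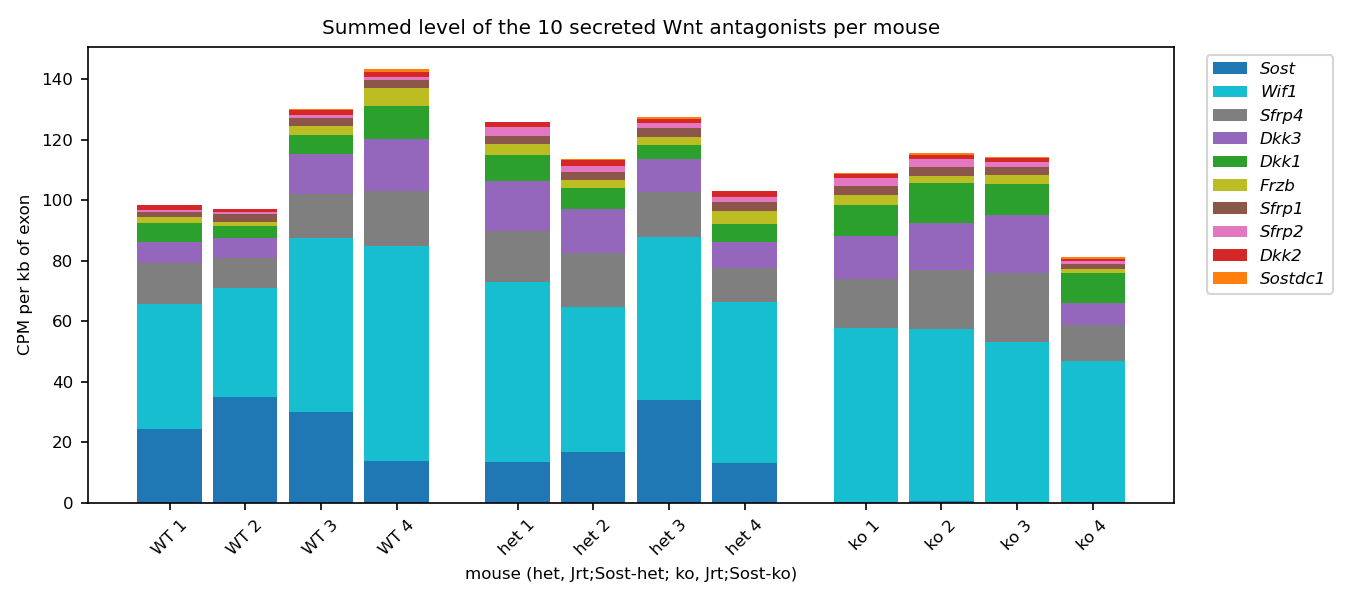
Stacked level of the 10 genes in CPM per kb of exon, 1 bar per mouse. *Wif1* is the broadest band in every mouse, and the *Sost* band, 9.62% to 36.0% of the bar in WT and 10.8% to 26.8% in het mice, is at most 0.536% in ko mice.

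Summed per kb, the 10 genes gave 117.5 ± 11.4 CPM per kb in het, 105.0 ± 16.1 in ko and 117.3 ± 23.2 in WT mice (SD, n = 4). Without *Sost* the sums were 98.2 ± 9.85, 104.6 ± 16.0 and 91.5 ± 30.0 CPM per kb. Their ranges overlapped, at 90.2 to 112.4 in het, 81.0 to 114.9 in ko and 62.1 to 129.7 in WT mice. The summed transcript level says nothing of the amount or activity of the proteins.

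Several antagonists moved together across mice of the same group. Deviations of each mouse from its group mean of log2 CPM were compared with those of summed marker lists, as a description over 12 mice (8 for *Sost*, without ko mice). The values of a mouse share 1 library and its tissue make-up, and the pairs named were chosen after their values were seen among all those plotted. *Dkk1* followed the osteocyte list (r = 0.923, Spearman's rho = 0.867), with r = 0.852 without the 2 mice farthest from the median. It followed the osteoblast list about as closely (r = 0.899, rho = 0.916 and r = 0.927). *Dkk3* followed the tendon and periosteum list (r = 0.99, rho = 0.986, r = 0.983 without the 2 farthest mice), as did *Sfrp4* (r = 0.905, rho = 0.895 and r = 0.81). Both also followed the osteoblast list (r = 0.917, rho = 0.944 for *Dkk3* and r = 0.869, rho = 0.86 for *Sfrp4*). *Frzb* followed the muscle list (r = 0.858, rho = 0.846 and r = 0.855) and, less closely, the chondrocyte list (r = 0.718, rho = 0.573 and r = 0.602), and it was lower in mice with more of the neutrophil list (r = -0.882, rho = -0.902 and r = -0.732). Nothing is read from the epidermal list, whose sum was above 19.0 CPM in WT mice 3 and 4 alone. *Sost* was higher in mice with more of the neutrophil list (r = 0.836, rho = 0.881, and 0.737 without the 2 farthest mice) and lower in mice with more of the chondrocyte list (r = -0.833, rho = -0.81 and -0.693). It was also lower in mice with more of the osteocyte list (r = -0.817, rho = -0.738, and -0.649 without the 2 farthest mice) and of the osteoblast list (r = -0.725, rho = -0.738 and -0.382). *Sost* was highest in WT mouse 2 and het mouse 3, the mice with the lowest sum of osteocyte genes in their groups, and WT mouse 2 was at the same time lowest of all mice for *Sostdc1*, *Dkk1*, *Dkk3*, *Sfrp2*, *Sfrp4* and *Wif1*.

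**Figure D4:**
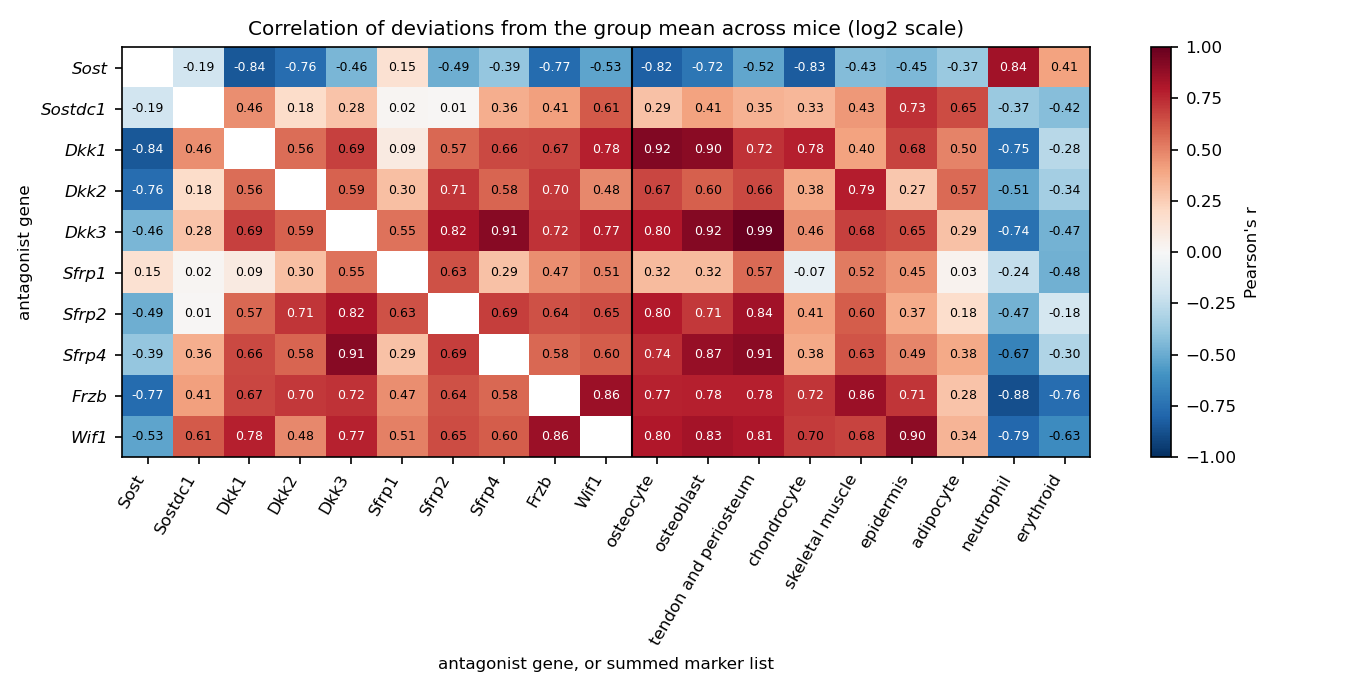
Pearson's r of deviations from the group mean of log2 CPM, for each antagonist (rows) against the other antagonists and the marker lists (columns), over 12 mice, or 8 WT and het mice where *Sost* is involved. All values of r among the 9 other antagonists are above 0 (lowest 0.0134, *Sostdc1* with *Sfrp2*), whereas *Sost* is at -0.845 with *Dkk1*, -0.77 with *Frzb* and -0.762 with *Dkk2*. By Spearman's rho, which is not plotted, *Sostdc1* is at -0.0559 with *Dkk2*, -0.035 with *Sfrp2* and 0 with *Frzb*.

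Other tissues differed in mean between the Jrt groups. In ko against het mice 0 of 9 chondrocyte genes (median log2 fold change -1.75) and 0 of 16 muscle genes (median -0.98) were above 0, against 50.4% of all genes tested. The genes of a list share a tissue, so these counts are not of independent genes. The summed levels overlapped (180 to 893 against 292 to 3700 CPM and 53.7 to 14400 against 2800 to 32400 CPM). Single mice stood out, with 3695 CPM of chondrocyte genes in het mouse 1, and 32430 and 53.7 CPM of muscle genes in het mouse 4 and ko mouse 4. No gene of either list was called by any of the 3 tools. At an unadjusted p under 0.05 in edgeR there were 2 chondrocyte genes and 0 muscle genes, where 5.02% of all genes tested had such a p. With the muscle genes as a covariate the *Frzb* log2 fold change between these groups was -0.16 (standard error 0.203) in place of -0.41.

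The bone cell lists also differed in mean, and *Dkk1* and *Dkk2* were set against them. In ko against het mice, 7 of 10 osteocyte and 10 of 11 osteoblast genes had a log2 fold change above 0, as did 50.4% of all genes, with medians of 0.33 and 0.26, and no gene of either list passed correction with edgeR, DESeq2 or limma-voom. At an unadjusted p under 0.05 in edgeR, the osteocyte genes were *Mepe* (0.70), *Irx5* (0.44) and *Fbln7* (-0.97), and the osteoblast genes *Bglap* (0.46), *Bglap2* and *Ifitm5*. Such a p was found for 5.02% of all genes tested. Of both lists, *Bglap*, *Bglap2* and *Fbln7* did not overlap between the Jrt groups, against 3.20% of all genes tested. *Dkk1* amounted to 2.11% to 2.46% of the summed osteocyte genes in het, 2.49% to 3.69% in ko and 2.21% to 2.64% in WT mice. The Jrt groups were apart by a narrow gap, and WT overlapped both. Of the summed osteoblast genes *Dkk1* amounted to 0.0318% to 0.038% in het and 0.0357% to 0.0563% in ko mice, which overlapped. *Dkk2* amounted to 0.648% to 1.22% of the osteocyte genes in het, 0.405% to 0.512% in ko and 0.54% to 0.878% in WT mice. By this ratio ko mice were below all others. Of the osteoblast genes *Dkk2* amounted to 0.0107% to 0.0196% in het and 0.0061% to 0.00929% in ko mice. Ratios were made only for *Sost*, *Dkk1*, *Dkk2* and *Sfrp2*, and the share of all genes set apart in this way was not computed. The osteocyte sum was itself higher by its median in ko mice (932 CPM) than in het mice (646 CPM), which lowers such a ratio. With the mean of the osteocyte genes as a covariate, an alternative added after the data were seen, the log2 fold change between the Jrt groups was 0.63 (standard error 0.136) for *Dkk1* and -0.85 (standard error 0.197) for *Dkk2*, both with an edgeR adjusted p of 0.745. With the osteoblast genes it was 0.53 (standard error 0.147) and -0.89 (standard error 0.265), with an adjusted p of 0.595 for both. Other antagonists also had an unadjusted p under 0.05 in these edgeR fits, and none passed correction. They were *Sfrp2* (-0.64) and *Sostdc1* (1.13) with the osteocyte genes and *Dkk3* (-0.46) and *Sostdc1* (1.47) with the osteoblast genes. *Dkk2* also moved with the muscle list within groups (r = 0.789, rho = 0.622), and with the muscle genes as a covariate its log2 fold change was -0.44 (standard error 0.192, edgeR adjusted p = 0.9).

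**Figure D5:**
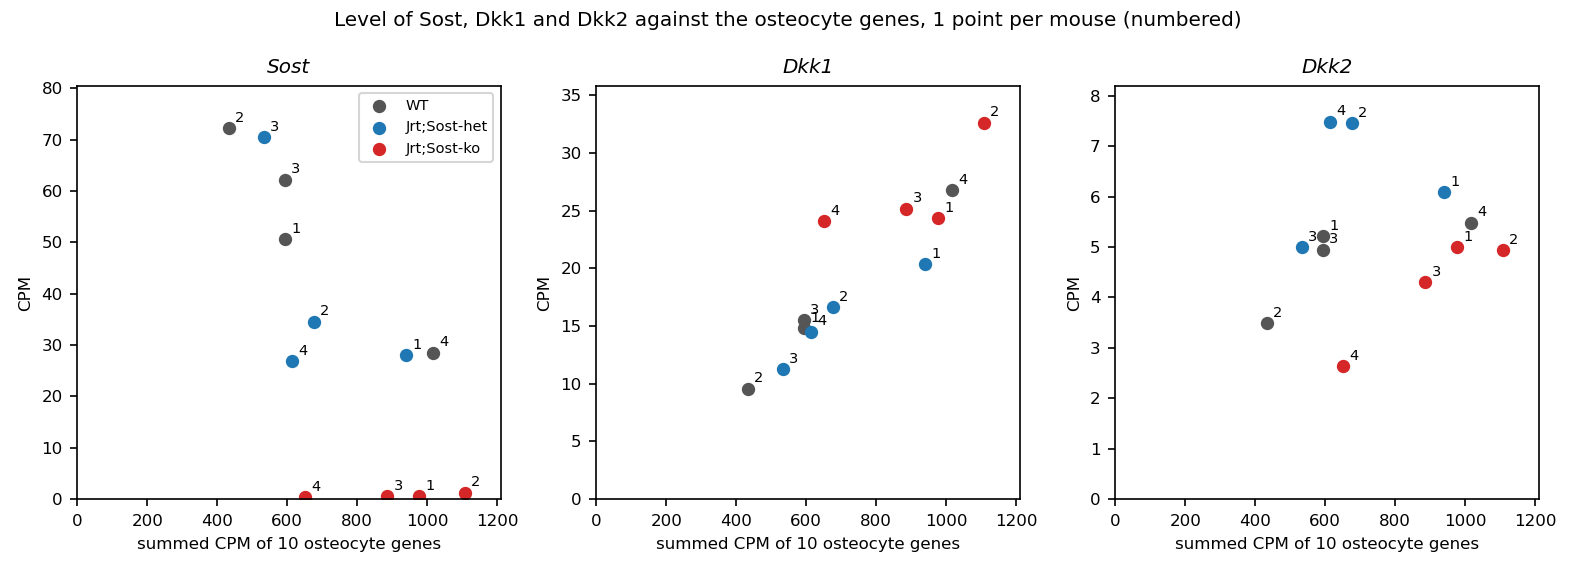
Level of *Sost*, *Dkk1* and *Dkk2* in CPM against the summed CPM of 10 osteocyte genes, 1 numbered point per mouse. *Dkk1* is higher and *Sost* lower in WT and het mice with more osteocyte RNA, and the ko points of *Dkk2* lie below other mice with a like osteocyte sum.

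The genes whose pattern over mice was most like that of each antagonist were taken from 11550 candidates, again from deviations within groups and as a description. They were *Tnn* (r = 0.991), *Thbs2* (r = 0.99) and *Col12a1* (r = 0.99) for *Dkk3*, with *Ahcy* (r = 0.992) and *Rpl10* (r = 0.985) among those for *Sost* over 8 mice. *Mdfi* (r = 0.958) was among those for *Dkk1*, *Sned1* (r = 0.958) was first for *Dkk2*, *Slc41a2* (r = 0.961) for *Sfrp2*, *Wdr19* (r = 0.981) for *Sfrp4*, *L3mbtl3* (r = 0.978) for *Sfrp1*, *Mkl2* (r = 0.976) for *Frzb* and *Ajuba* (r = 0.972) for *Wif1*. Being the highest of 11550 values over few mice, these r are raised by the selection itself. No link between the genes was tested.

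The co-receptors and binding partners of these antagonists were nearly level between the Jrt groups. *Lrp4*, which anchors sclerostin, *Lrp5*, *Lrp6* and *Kremen1*, a Dickkopf receptor, had log2 fold changes from -0.05 to 0.03 with standard errors of 0.0832 to 0.152, and *Kremen2* was too low to test. In that comparison 0 of 4 of these genes, 0 of 9 Frizzled receptors, 0 of 12 Wnt ligands tested of 19, and 0 of 10 other extracellular modulators tested of 13 passed correction in edgeR, and none did with DESeq2 or limma-voom. At an unadjusted p under 0.05 in edgeR there was *Tpbg*, a membrane Wnt inhibitor, alone among them, at 8.52 ± 1.41 CPM in het and 13.6 ± 3.10 CPM in ko mice (SD, n = 4; log2 fold change 0.68, standard error 0.191, edgeR adjusted p = 0.901). Of 12 Wnt target genes tested of 13, 11 had a log2 fold change above 0 and none passed correction with any of the 3 tools, with a median of 0.27. Of all genes tested 50.4% were above 0 and 5.02% had an unadjusted p under 0.05, and the osteoblast and osteocyte lists had like medians of 0.26 and 0.33. The part of bone cell RNA in the target genes was not tested. At an unadjusted p under 0.05 in edgeR they were *Nkd2*, a feedback inhibitor, *Wisp1*, a matricellular protein, and *Tnfrsf11b*, which codes for the osteoclast inhibitor osteoprotegerin, at log2 fold changes of 0.45, 0.42 and 0.57. *Axin2*, the usual readout of canonical Wnt signalling, had 0.21 (standard error 0.257).

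Against WT, no gene of these 5 lists passed correction in either Jrt group with any of the 3 tools. For ko mice, 9 of 12 Wnt targets were above 0 (median 0.19), and the genes of the lists with an unadjusted p under 0.05 in edgeR were *Tcf7*, a transcription factor of the pathway, at 0.34 (standard error 0.147), and *Rspo1*, which amplifies Wnt signals, at -0.58 (standard error 0.239). For het mice, 4 of 12 targets were above 0 (median -0.05) and no gene of the 5 lists had an unadjusted p under 0.05 in edgeR. A log2 fold change above 0 was found for 49.1% and 51.3% of all genes in these comparisons.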

How the data were processed

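RNA of 12 tibia shafts was measured by paired-end sequencing. STAR was used by the authors for alignment to GRCm38, and the submitters' processing notes also name bcl2fastq 2.20, Cufflinks, Cuffdiff and DESeq. The counting tool, its strand setting and the annotation release are not given in the sources used here. The deposited count table holds raw counts per gene for each mouse and is the only table used. Also deposited were 9 tables of the authors' comparisons (fold changes, p-values, raw and normalized counts), which were not used, nor were the count files of single mice.

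Groups followed the labels. Every comparison was a separate fit of 8 mice with edgeR 4.0.16 in R 4.3.3 (TMM, filterByExpr, glmQLFit, glmQLFTest), with Benjamini–Hochberg adjustment over all genes tested and a threshold of 0.05. Standard errors were the log2 fold change divided by the square root of F, and intervals used the t distribution of the fit. Permutation tests were exact and two-sided over 70 arrangements of mean log2 CPM (prior count 2), so that no p can be below 0.0286. CPM per kb used union exon lengths of GENCODE M21, which held 46574 of 47069 identifiers. Between 24366061 and 44418863 counts per mouse lay behind the values, and counts of mice of the same group differed far beyond sampling noise (chi-square per degree of freedom 25.8 to 250 over 18 pairs). The labels give no batch. The mice are separate animals, and their litters are not given in the sources used here.

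The members, lists, tests and alternatives were chosen with earlier results of these data known. Named genes were the 10 antagonists, members of the pathway and marker lists and, for each antagonist with a mean CPM of at least 1, the 3 most alike genes (mean CPM of at least 5), of which the text gives a part, and 1 gene is not reported here. Alternatives were other scalings, DESeq2 1.42.0, limma-voom (limma 3.58.1), other filters, all 12 mice in a single fit, marker lists as covariates, and leaving mice out. The functions were tested on simulated counts. Skeletal phenotypes were not analysed here.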

Additional observations from a re-analysis of the deposited data

Results flagged for a closer look

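In 30 groups of 4 mice (10 genes in 3 genotypes), 2 held a mouse set apart from the others by Dixon's criterion, where chance gives about 1.5. *Dkk1* in ko mice was highest in mouse 2, at 32.6 CPM against 24.1 to 25.2 CPM in the others, a gap of 0.869 of the group's range. *Sfrp1* in WT mice was lowest in mouse 1, at 8.01 CPM against 11.9 to 12.3 CPM, a gap of 0.9 of the range. Without ko mouse 2 the *Dkk1* log2 fold change against het mice was 0.64 (edgeR adjusted p = 0.992), and without WT mouse 1 that of *Sfrp1* in ko mice against WT was -0.05 in place of 0.08.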

How the results depend on the processing

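Of 557 alternative values of the fold changes, 490 kept the direction and side of the threshold, 12 kept the direction but lost the call, and 55 changed sign, all 55 of them for genes that passed the test in no setting. *Dkk1* and *Dkk2* kept their direction between the Jrt groups under all 18 alternatives, and *Sfrp2* that of het against WT under all 19. The number of antagonists called, 1 (*Sost*) in ko against het, was 0 with limma-voom and with muscle, osteoblast or osteocyte genes as a covariate (*Sost* log2 fold changes -5.66, -5.74, -5.74 and -5.82, adjusted p = 0.479, 0.0503, 0.287 and 0.163). Leaving out single mice gave 0 to 1 antagonists called in both comparisons with ko mice, with *Sost* between -6.40 and -5.46 (ko against het) and between -6.82 and -6.07 (ko against WT), and the call was lost without the ko and WT mice named in the report. The cause was not tested. Signs that changed were as follows, on the log2 scale. With limma-voom they were 0.013 for *Sfrp1*, 0.14 for *Sfrp2* and 0.067 for *Wif1* in ko against het, 0.64 for *Sostdc1* and 0.039 for *Frzb* in ko against WT and 0.060 for *Dkk1* in het against WT. Without a filter they were 0.00032 for *Wif1* in ko against het. With the muscle genes as a covariate they were 0.021 for *Sfrp1*, 0.086 for *Sfrp2* and 0.040 for *Wif1* in ko against het and 0.29 for *Sostdc1* and 0.063 for *Frzb* in ko against WT. With the osteoblast genes they were -0.46 for *Dkk3* and -0.14 for *Sfrp4* in ko against het, -0.37 for *Dkk3*, -0.11 for *Sfrp1*, -0.11 for *Sfrp4* and -0.30 for *Wif1* in ko against WT and -0.051 for *Dkk3*, -0.052 for *Sfrp4*, -0.039 for *Frzb* and -0.084 for *Wif1* in het against WT. With the osteocyte genes they were -0.14 for *Dkk3* in ko against het, -0.043 for *Dkk3*, -0.047 for *Sfrp1* and -0.16 for *Wif1* in ko against WT and -0.0039 for *Wif1* in het against WT. Without WT mice 3 and 4 they were 1.64 for *Sostdc1* and 0.55 for *Frzb* in ko against WT and 0.91 for *Sostdc1* and 0.38 for *Dkk1* in het against WT. Leaving out single mice gave both signs for *Dkk3* from -0.049 to 0.35, *Sfrp1* from -0.18 to 0.013, *Sfrp2* from -0.29 to 0.21 and *Wif1* from -0.059 to 0.047 in ko against het, *Sostdc1* from -0.41 to 0.98, *Sfrp1* from -0.051 to 0.20, *Frzb* from -0.51 to 0.25 and *Wif1* from -0.077 to 0.26 in ko against WT, *Sostdc1* from -1.36 to 0.24, *Dkk1* from -0.27 to 0.24, *Sfrp4* from -0.022 to 0.26, *Frzb* from -0.093 to 0.65 and *Wif1* from -0.067 to 0.26 in het against WT. Over all genes, DESeq2 called 7, 18 and 4 genes in the 3 comparisons (ko against het, ko against WT, het against WT), limma-voom 0, 2 and 0, and edgeR 1, 1 and 0; with the osteoblast genes as a covariate edgeR called 19 in ko against WT and without a filter 2. In ko against het edgeR called between 0 and 3 genes and in ko against WT between 0 and 2 when a mouse was left out. The covariates of osteoblast and osteocyte genes were chosen after the data were seen. With a mean CPM of at least 1, *Sostdc1* was not tested. No paired analysis was possible because the mice are numbered in the order of the labels and no label ties mice across groups.

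*Sostdc1* had 1 to 71 counts per mouse and varied between mice of a group by 34.8% to 109% (coefficient of variation). For all 10 genes the intervals reflect the spread between mice, with 4 mice per group. Changes smaller than those intervals were not detectable, and larger ones could also miss the call after correction over all genes. *Dkk1* in ko against het mice did so, at a fold of 1.69 (95% CI 1.28 to 2.24, edgeR adjusted p = 0.901).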
